A study of Mus musculus with 12 samples.

Results

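The 6 pBIC lymphoma libraries of a 12-library mouse RNA-seq series were compared with each other, 3 named pBICh against 3 named pBICl. The letters h and l stand only in the names of the deposited files. Their meaning is not given in the sources used here, and the sample titles number the 6 libraries 1 to 6 without them. The files marked h hold titles 1 to 3 (pBICh 1, 2 and 3 below) and the files marked l hold titles 4 to 6 (pBICl 4, 5 and 6). All 6 pBIC mice carried the same labelled genotype: floxed p53 and floxed Blimp1 on both alleles (p53F/F, Blimp1F/F), 2 copies of a stop-cassette allele for constitutively active IKK2 (IKK2castopF/stopF) and 1 Cg1Cre allele. Cg1Cre is expressed with the IgG1 constant gene and acts in B cells that have been activated, so the alleles are recombined in only part of the B cells of a mouse. The remaining libraries served as a reference for levels: 3 normal controls (YC, YFPstopF/+ with Cg1Cre/+) and 3 BIC lymphomas, which have the Blimp1 and IKK2 alleles and Cg1Cre and no floxed p53 in their label. RNA came from live B220-positive spleen cells that carried the reporter (GFP in BIC and pBIC, YFP in YC), each library from its own mouse by the design text. Age and sex were not in the labels.

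These mice model the ABC subtype of diffuse large B-cell lymphoma (ABC for activated B cell), a tumour of mature B cells in which NF-kB signalling is constantly on and the step to a plasma cell is blocked. IKK2, encoded by Ikbkb, is the kinase that releases canonical NF-kB; Blimp1, encoded by Prdm1, is the transcription factor that drives plasma cell differentiation; and p53, encoded by Trp53, stops or kills cells with damaged DNA. A lymphoma usually descends from 1 B cell, so its cells share 1 rearranged heavy-chain V gene and 1 light-chain V gene, and the V genes that dominate the RNA of a library mark its leading clone.

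A few V genes dominated every pBIC library, and pBICh 2 and pBICl 5 were the pair that shared both its leading heavy-chain and its leading kappa gene. In pBICh 2, Ighv2-9 took 89.1% of the 55606 heavy-chain V gene counts (95% Wilson interval 88.9 to 89.4%) and Igkv19-93 took 96.1% of the 65828 kappa V gene counts. In pBICl 5 the same genes took 94.9% of 77792 and 99.4% of 78155 counts. They also placed 3.97% and 4.89% of their heavy-chain V counts on Ighv2-6-8, a close relative of Ighv2-9, which held 13.5% in pBICh 3 where Ighv2-9 did not lead. These are the libraries that carry number 2 in the file names of the h group and of the l group. The counts do not read the V(D)J junction, so whether the 2 libraries hold 1 clone or sister clones with different junctions was not tested.

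The germline V exons of the shared genes are shown because they define the overlap between the groups. Each is read 5′ to 3′ on the coding strand from the GENCODE M21 transcript (GRCm38), and each gene has 2 exons. The stretch printed for Ighv2-9 lies at chr12:113879096-113879395 on the minus strand, and that for Ighv2-6-8 at chr12:113796138-113796437 on the minus strand. Capitals mark the 11 of 300 bases at which they differ (96.3% identity).
Ighv2-9: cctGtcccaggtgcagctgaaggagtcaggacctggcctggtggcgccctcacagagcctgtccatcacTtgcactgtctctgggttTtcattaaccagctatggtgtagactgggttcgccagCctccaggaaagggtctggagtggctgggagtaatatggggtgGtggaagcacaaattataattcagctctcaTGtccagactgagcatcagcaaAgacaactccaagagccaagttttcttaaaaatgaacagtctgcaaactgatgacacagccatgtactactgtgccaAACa
Ighv2-6-8: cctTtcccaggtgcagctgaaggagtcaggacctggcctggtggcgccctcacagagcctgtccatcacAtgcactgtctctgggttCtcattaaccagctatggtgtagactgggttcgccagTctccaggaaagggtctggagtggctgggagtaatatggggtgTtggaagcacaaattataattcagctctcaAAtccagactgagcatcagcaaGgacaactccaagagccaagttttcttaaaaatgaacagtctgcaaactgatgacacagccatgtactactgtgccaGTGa
The headers of the count files show no option to count multi-mapping reads. How the aligner placed reads that fit either gene nearly as well is not given, so the split between these near-identical copies is uncertain.

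The kappa genes of pBICh 1 are shown for the opposite reason: 2 genes rather than 1 led that library. Igkv12-44 took 62.1% and Igkv19-93 took 32.9% of its 75346 kappa V counts. Igkv19-93 lies at chr6:68736297-68736594 on the minus strand, and Igkv12-44 at chr6:69814631-69814928 on the minus strand. Capitals mark the 89 of 298 bases that differ between their V exons (70.1% identity).
Igkv19-93: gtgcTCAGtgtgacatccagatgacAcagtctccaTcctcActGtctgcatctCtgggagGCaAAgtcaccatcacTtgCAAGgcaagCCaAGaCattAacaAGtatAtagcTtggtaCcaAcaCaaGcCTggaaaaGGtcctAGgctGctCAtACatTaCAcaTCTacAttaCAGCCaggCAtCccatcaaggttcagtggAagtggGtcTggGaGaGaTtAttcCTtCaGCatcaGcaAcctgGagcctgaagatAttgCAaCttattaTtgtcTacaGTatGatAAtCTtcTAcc
Igkv12-44: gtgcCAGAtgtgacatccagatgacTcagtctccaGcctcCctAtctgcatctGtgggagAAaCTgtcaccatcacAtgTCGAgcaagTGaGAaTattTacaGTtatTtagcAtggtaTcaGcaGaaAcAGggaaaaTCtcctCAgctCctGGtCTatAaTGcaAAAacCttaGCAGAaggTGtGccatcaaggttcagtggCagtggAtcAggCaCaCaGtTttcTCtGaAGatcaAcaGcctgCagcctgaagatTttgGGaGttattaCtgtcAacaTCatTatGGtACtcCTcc
In pBICh 3, Igkv12-44 led with 92.5% of 44426 counts beside the heavy-chain gene Ighv3-2 (53.8% of 12505). The leading heavy-chain genes of pBICh 1 were Ighv5-4 (35.8% of 29093) and Ighv5-12 (34.0%), so pBICh 1 and pBICh 3 shared a kappa gene and not a leading heavy-chain gene. In pBICl 4, Ighv1-56 (50.9% of 9638) and Igkv5-48 (71.1% of 37461) led. In pBICl 6, Ighv9-3 (93.0% of 29163) and Igkv6-23 (86.2% of 27895) led. In the 3 YC libraries no heavy-chain or kappa V gene held more than 11.4% of its locus. Ighm, the constant gene of IgM, held 95.7%, 96.7%, 95.7% and 93.1% of the heavy constant counts in pBICh 1, pBICh 2, pBICl 5 and pBICl 6. In pBICh 3 Ighg2b, of IgG2b, held 85.2%, and in pBICl 4 Ighg1, of IgG1, held 68.6%. Each group thus had 2 libraries led by IgM and 1 led by an IgG class.

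**Figure D1:**
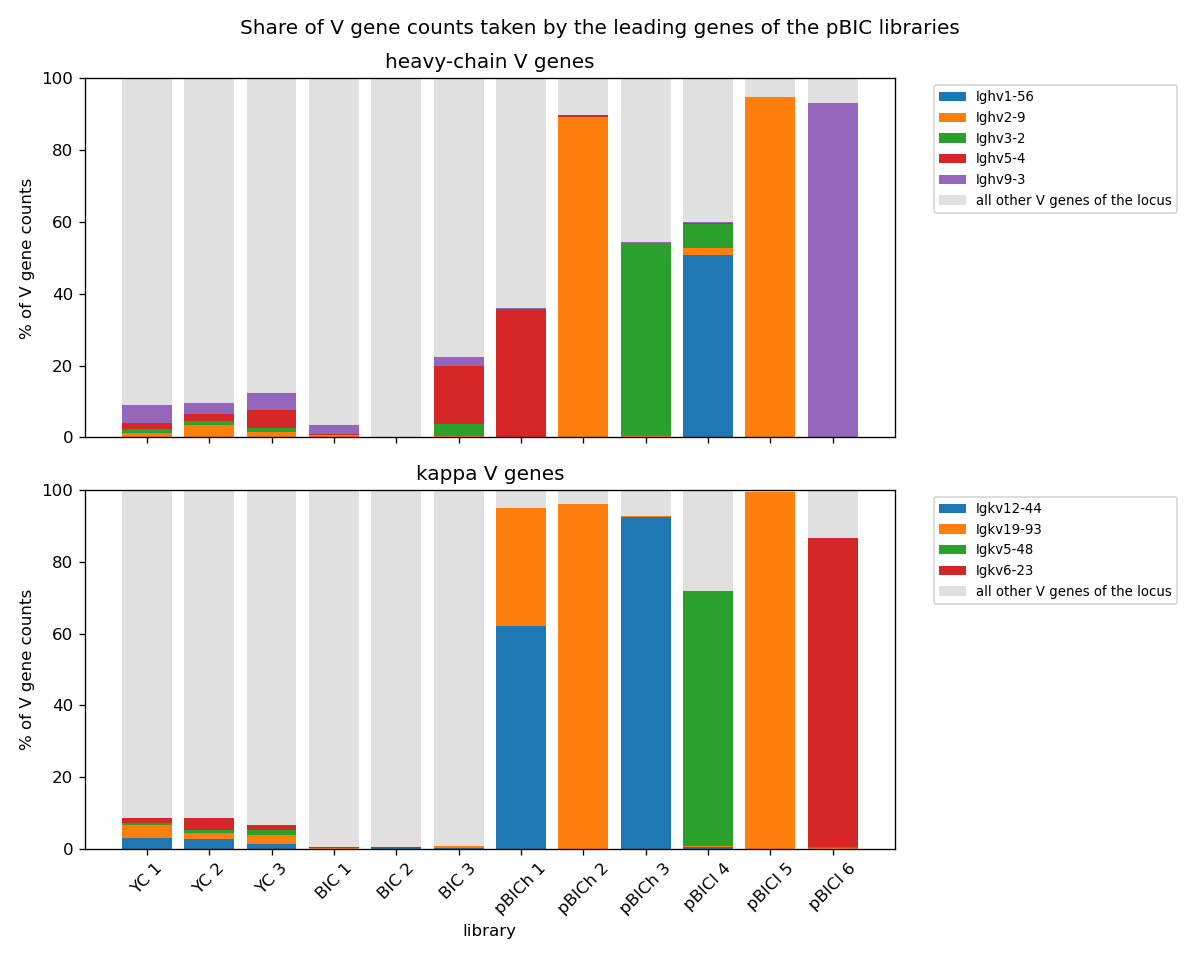
Each bar is 1 library. The height of a colour is the percent of all heavy-chain (top) or kappa (bottom) V gene counts taken by a gene that leads in at least 1 pBIC library, and grey is every other V gene of that locus. pBICh 2 and pBICl 5 have the same pair of leading genes, while the YC bars are mostly grey.

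Total gene counts ran from 36450347 to 47067627 over the 6 libraries, with group means of 41310000 (pBICh) and 41220000 (pBICl). All 8 B cell markers examined, among them Cd79a, Ms4a1 and Pax5, were present in all 6 libraries; summed, they reached 2510 to 7420 CPM (counts per 1000000 counts, the unit of every level below) against 8790 to 10600 CPM in YC. In sorted bulk samples such as these, fewer cells of a type and less RNA per cell cannot be told apart. Xist, the RNA of the inactive X chromosome, stood at 2037, 2591 and 1472 CPM in pBICh 2, pBICl 4 and pBICl 5, and at most at 4.17 CPM in the other three. Y-linked genes summed to 295 CPM in pBICh 3 and 291 CPM in pBICl 6. pBICh 1 had little of either (2.54 CPM of Xist and 5.42 CPM of Y-linked genes). Of 4 whole-library measures, total counts (exact permutation p = 1), the immunoglobulin share (p = 0.8) and the share of the 100 most counted genes (p = 0.5) overlapped between the groups. The number of genes at 1 CPM or more did not: 12215, 12100 and 12245 in pBICh against 12376, 12281 and 12293 in pBICl (two-sided exact permutation p = 0.1, the smallest that 3 against 3 can give).

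The engineered genes did not separate the groups. Trp53 (chromosome 11, 69580359 to 69591873, GRCm38) stood at 24.9, 20.4 and 22.9 CPM in pBICh and at 31.5, 16.0 and 24.4 CPM in pBICl, against 142 ± 6.21 CPM (SD, n = 3) in YC. All 6 libraries were far below YC, and the pBICl values lay on both sides of the pBICh values. Ikbkb (chromosome 8, 22659212 to 22706589) ran from 450 to 504 CPM over the 6 libraries, with a log2 difference of pBICh minus pBICl of -0.01 ± 0.21 (SE); the same difference for Trp53 was -0.09 ± 0.33. Prdm1 (chromosome 10, 44437177 to 44528501) stood at 9.78, 10.5 and 0.709 CPM in pBICh and at 7.40, 21 and 19 CPM in pBICl (log2 difference -1.19 ± 0.92), against 18.9 ± 1.02 CPM (SD, n = 3) in YC. pBICh 3 was the low one, and pBICl 5 and pBICl 6 lay near the YC level. These counts sum all exons, and the labels do not name the floxed ones.

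The direct comparison asked whether any gene differed between pBICh and pBICl beyond the spread between mice. None did by the main test. Of 15850 genes, edgeR's quasi-likelihood test with Benjamini-Hochberg adjustment called 0 higher (0%) and 0 lower (0%) in pBICh at an adjusted p under 0.05. At an unadjusted p under 0.05 it held 153 genes (0.965%). The 3 pBICh libraries all lay above the 3 pBICl libraries for 270 genes (1.7%) and all below for 277 genes (1.75%). Without any group difference, a share of 0.05 would be expected for the former. Complete separation of 3 against 3, in either direction, has a probability of 0.1 by exact permutation. The shares found were lower, so these counts are no sign of a difference. The median SE of a log2 difference was 0.51, wider than the median size of the differences themselves (0.22). Between mice, log2 CPM had a median SD over genes of 0.51 within pBICh and 0.54 within pBICl, against 0.24 within YC and 0.30 within BIC. With 3 mice each and this spread, the lack of a call does not show that the groups were alike.

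DESeq2 was the only alternative test that called any gene, with 3 of 15596 higher (0.0192%) and 1 lower (0.00641%) in pBICh. Each is named here after its values were seen. Gm14139, a predicted protein-coding gene, stood at 1.79, 1.72 and 4.28 CPM in pBICh and at 0, 0.0457 and 0.0460 CPM in pBICl (DESeq2 adjusted p = 1.03e-05, edgeR adjusted p = 1). Igkv12-44 (DESeq2 adjusted p = 0.0190) is the kappa gene that led pBICh 1 and pBICh 3. It reached 1179 and 1120 CPM there and 1.01 CPM in pBICh 2. Ighv5-6 (DESeq2 adjusted p = 0.00321) stood at 98.5 CPM in pBICh 1 alone, with 3.42 CPM or less elsewhere. The pseudogene Btnl5-ps stood at 1.66, 2.10 and 1.34 CPM in pBICh and at 8.51, 5.23 and 5.68 CPM in pBICl (DESeq2 adjusted p = 0.0204). Thus 2 of the 4 calls were V genes, 1 high in pBICh 1 and pBICh 3 and 1 high in pBICh 1 alone. The edgeR adjusted p of all 4 was 1.

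Since no gene passed, the genes below are those with the smallest unadjusted p among expressed genes (a mean of at least 5 CPM) whose libraries did not overlap between the groups, and they are named as not past the threshold. There were 105 such genes with pBICh above and 78 with pBICl above, and the lack of overlap was a condition of the choice. The values that follow describe these libraries only.

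Zfp385a, a zinc-finger RNA-binding protein of the p53 network, headed the pBICh side. It stood at 62.0, 60.7 and 84.3 CPM in pBICh and at 24.8, 38.8 and 21.8 CPM in pBICl. Its log2 difference was 1.26 ± 0.31 (SE), with an unadjusted edgeR p of 0.00448 and an adjusted p of 1. BIC averaged 69.3 CPM and YC 23 CPM, and pBICl 4 and pBICl 6 lay near the latter. Nes, which encodes the intermediate filament nestin, had a log2 difference of 4.85 ± 1.51, but most of its group mean came from pBICh 3: 8.72, 3.95 and 119 CPM against 1.01, 0.389 and 3.08 CPM. Without pBICh 3 the log2 fold change of Nes was 2.06. Tes, a focal adhesion protein, was tight in pBICh and spread in pBICl, at 29.0, 25.4 and 25.1 CPM against 6.84, 14.6 and 17.3 CPM, all under the YC mean of 61.9 CPM. Il10rb, the shared receptor chain for IL-10 family cytokines, stood at 23, 29.9 and 29.6 CPM against 19.4, 16.4 and 16.4 CPM. Pxk, a phox-domain kinase-like protein linked to B cell receptor internalisation, stood at 97.3, 59.2 and 72.9 CPM against 57.6, 34.5 and 40.9 CPM. The gap between its lowest pBICh and highest pBICl library was small beside the spread within each group. Noxa1, an activator subunit of NADPH oxidase, stood at 14.6, 6.32 and 10.4 CPM against 1.98, 5.32 and 3.57 CPM, with almost none in YC (0.159 CPM). The other four were Cdk5rap1, Smim24, Fndc9 and Ttc3, with log2 differences of 1.33, 1.53, 1.23 and 0.61. Without pBICh 1 the log2 fold change of Cdk5rap1 was 0.78. Fndc9 was also highest in pBICh 1 (74.3, 22.6 and 28.7 CPM in pBICh), and its lowest log2 fold change over the alternative fits was 0.52.

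On the pBICl side the largest differences were single-library values. Il7r, the receptor for IL-7 that developing B cells use, stood at 97.4 CPM in pBICl 4 and at 1.12 CPM or less in the other five libraries. Rgs16, a regulator of G-protein signalling, stood at 59.2 CPM in pBICl 4, at 3.84 and 3.27 CPM in pBICl 5 and 6, and at 0.252, 0.730 and 0.791 CPM in pBICh. Its log2 difference was -5.23 ± 1.36 (edgeR unadjusted p = 0.00649). C3, the central complement component, stood at 11.8, 9.90 and 1.75 CPM in pBICh and at 13.9, 29.4 and 86.0 CPM in pBICl, so that pBICl 6 was the high one. Ifi207, of the interferon-inducible p200 family, was also highest in pBICl 6 (29.2 CPM, with 1.06 to 5.69 CPM in the others). Differences spread over all 3 pBICl libraries were smaller. Ppp3cc, a catalytic subunit of calcineurin, stood at 33.7, 36.7 and 26.8 CPM against 58.9, 78.9 and 41.5 CPM (log2 difference -0.90 ± 0.31). Cdc42bpb, a kinase downstream of CDC42, stood at 21.2, 26.1 and 18.3 CPM against 26.6, 43.8 and 61.7 CPM. Its pBICh 2 and pBICl 4 values nearly touched. B4galt1, a galactosyltransferase, stood at 71.3, 81.6 and 69.8 CPM against 180, 113 and 92.4 CPM. Ado, which oxidises cysteamine and protein cysteines, stood at 18.4, 16.4 and 14.7 CPM against 29.6, 23 and 23.2 CPM. Mast4 and Rpph1 completed the set, with log2 differences of -1.71 and -1.54. Without pBICl 4 the log2 fold change of Il7r was -0.90 in place of -6.01, the log2 fold change of Rgs16 -2.60 in place of -5.23 and the log2 fold change of Mast4 -0.76 in place of -1.71. Without pBICl 6 the log2 fold change of Ifi207 was -1.31 in place of -2.83, and the log2 fold change of C3 was -1.47 in place of -2.48. These 5 genes thus owed much of their difference to 1 pBICl library each.

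**Figure D2:**
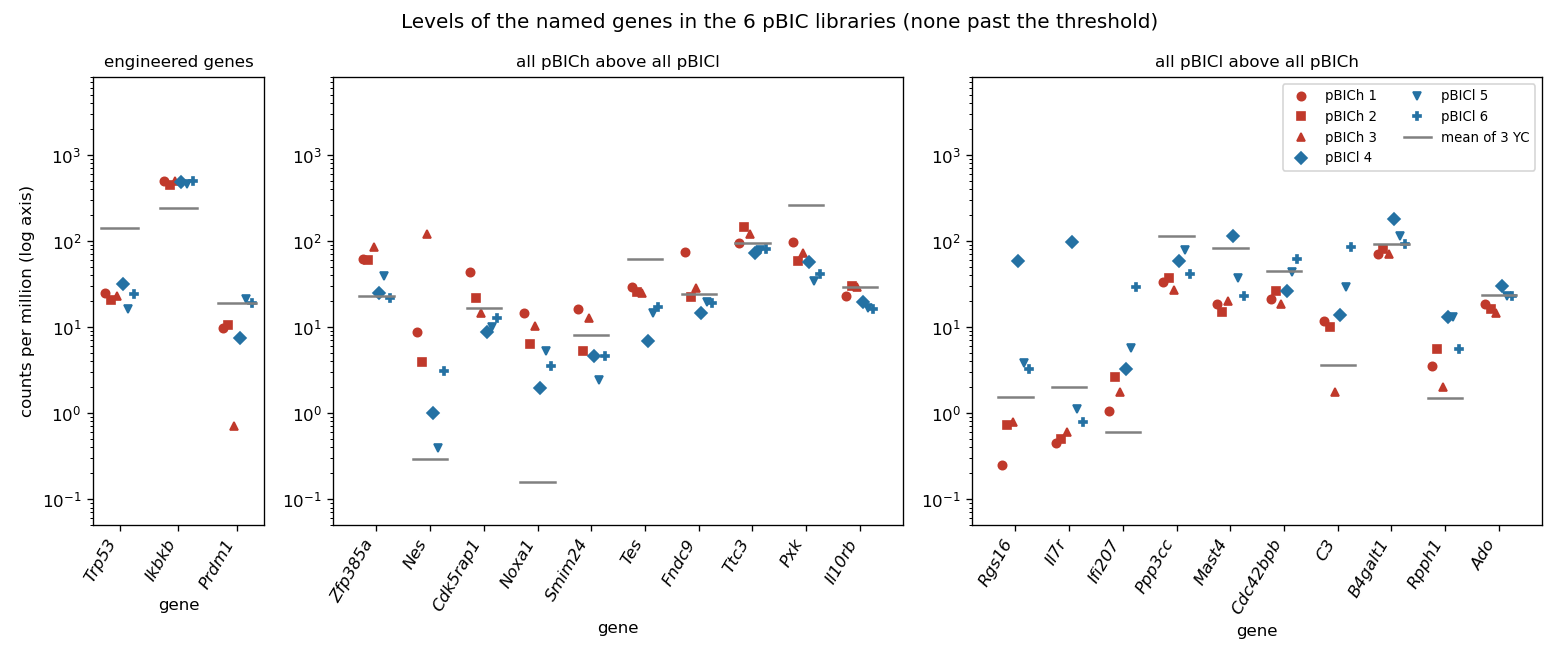
CPM on a log axis for the engineered genes (left) and the genes chosen for groups that did not overlap (middle and right), 1 symbol per library, red for pBICh and blue for pBICl, with a grey line at the mean of 3 YC libraries. Ikbkb and Trp53 are tight in all 6 libraries, whereas Nes, Rgs16 and Il7r are set apart by 1 library each.

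No gene list separated the groups either. Of 27 lists of B cell states, growth, metabolism and signalling genes, 0 had a member called by edgeR, and the list levels of pBICh and pBICl libraries overlapped in all of them. The lists held 611 distinct tested genes, of which 3 (0.491%) had an unadjusted p under 0.05 and 15 (2.45%) did not overlap between the groups; over all genes those shares were 0.965% and 3.45%. Member counts and medians are given as descriptions, and no list was tested as a set. Some members named below were chosen after their values were seen. The median log2 difference over all genes was -0.01.

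In the list of cholesterol and fatty acid synthesis genes, 4 of 22 members were higher in all pBICh than in all pBICl libraries. Over all genes that share was 1.7%. This was the highest such count among the 27 lists, so it was picked from many. The list median was 0.08. Idi1, an isomerase of the mevalonate pathway, was nearly constant in pBICh at 20.8, 21.6 and 21.4 CPM, against 13.8, 18.1 and 8.86 CPM. Stard4, a cholesterol transporter, stood at 38.5, 40.5 and 41.4 CPM against 35.4, 25.4 and 12.8 CPM, and Fdps, which makes farnesyl diphosphate, at 2.82, 3.03 and 3.00 CPM against 1.98, 2.42 and 0.990 CPM. In each of these genes pBICl 6 had the lowest value, and none passed edgeR's test at an adjusted p under 0.05. All 6 libraries lay below the YC range in Idi1 and Stard4. Insig1 and Sqle, which had a smaller unadjusted p than Idi1, overlapped between the groups.

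Among antigen presentation genes, 14 of 16 tested MHC class II members had a higher fitted level in pBICh (median log2 difference 0.35), and 18 of 23 MHC class I members a lower one (median -0.23). Only H2-DMb2, a chain of the peptide-loading chaperone, did not overlap: 514, 356 and 332 CPM in pBICh against 256, 227 and 305 CPM in pBICl (log2 difference 0.59 ± 0.28). Over all genes 3.45% did not overlap, so 1 member does not set these lists apart. The classical class II gene H2-Eb1 stood at 1554, 1822 and 967 CPM against 792, 1236 and 1010 CPM, with pBICh 3 inside the pBICl range. The class II list level, as the mean over members of log2 CPM minus the YC mean, was -0.92, -0.99 and -1.40 in pBICh and -1.50, -1.34 and -1.52 in pBICl. Only pBICh 3 and pBICl 5 crossed.

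The type I interferon response list had the lowest median, -0.69, with 29 of 32 members on the pBICl side. It also had the widest range of the 27 gene lists over the 6 libraries, with pBICl 6 at the top: its list level was 1.96 log2 units above YC, against -0.12 and 0.12 in pBICl 4 and 5 and 0.59, 0.85 and -0.93 in pBICh. Isg15, a ubiquitin-like modifier, stood at 145 CPM in pBICl 6, at 24.1 CPM in pBICh 1 and at 1.83 to 4.62 CPM in the other four. Oasl1 stood at 310 CPM in pBICl 6 and at 1.80 to 12.5 CPM elsewhere. Rsad2, an antiviral enzyme, followed the same order, with 227 CPM in pBICl 6, 23.2 CPM in pBICh 1 and 0.682 CPM in pBICh 3. Without pBICl 6 the remaining pBICl list levels lay inside the pBICh range.

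The immediate-early and heat-shock list had the second widest range, and it divided the libraries across the groups. Its level was -0.60 in pBICh 1 and -0.79 in pBICl 6, and between -3.19 and -2.54 in the other four. Egr1, a transcription factor induced within minutes of a stimulus, stood at 708 CPM in pBICh 1 and 1746 CPM in pBICl 6, at 272 CPM in pBICh 3 and at 28.0 to 55.9 CPM in pBICh 2, pBICl 4 and pBICl 5. Fos stood at 1241 CPM in pBICh 1, 1154 CPM in pBICl 6 and 641 CPM in pBICh 3, and at 126 to 140 CPM in the remaining libraries. The 2 list members with an unadjusted p under 0.05 were the heat-shock genes Hspa1a and Hspa1b. For Hspa1b, pBICh 1 held 582 CPM and the other libraries 3.39 to 50.1 CPM.

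The remaining lists held few members outside the overlap, where 3.45% of all genes lay. Among marginal zone and Notch genes (median 0.31, 13 of 18 tested members on the pBICh side), Cd36, a scavenger receptor, stood at 414, 400 and 295 CPM in pBICh and at 21.4, 213 and 16.6 CPM in pBICl, with YC at 39.2 to 49.3 CPM; pBICl 5 was nearer to pBICh than to its own group. Dtx4, of the Deltex family, also did not overlap but differed little (6.17, 6.12 and 5.84 against 3.60, 5.53 and 5.68 CPM). Txndc5, a protein disulfide isomerase, stood at 288, 313 and 688 CPM against 264, 255 and 282 CPM, and Plxnb2, a semaphorin receptor, at 239, 258 and 283 CPM against 178, 218 and 156 CPM. On the pBICl side were the cyclin Ccnd3 (55.1, 58.3 and 50.05 against 77.8, 60.9 and 61.0 CPM) and the translesion polymerase Polk (12.4, 11.9 and 8.54 against 15.3, 13.4 and 18.0 CPM), together with Bnip3, Runx2, Cd160 and Tnfrsf9. Bcl2, the survival gene, stood at 112, 125 and 78.5 CPM in pBICh and 124, 189 and 176 CPM in pBICl, overlapping by 1 library. The p53 target Cdkn1a stood at 1.21, 1.16 and 1.39 CPM in pBICh and at 0.811, 3.66 and 11.5 CPM in pBICl.

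Proliferation, MYC target, oxidative phosphorylation and NF-kB lists had 0 members outside the overlap, with medians of -0.08, -0.02, 0.05 and -0.10. Over all genes 3.45% lay outside the overlap, so 0 members does not set these lists apart. The MYC target and ribosome biogenesis list lay 0.80 to 1.64 log2 units above YC in the 6 libraries. Myc stood at 920, 379 and 1114 CPM in pBICh and at 1429, 608 and 861 CPM in pBICl. The proliferation list lay between -0.36 (pBICh 1) and 0.42 (pBICh 3), so both extremes were in pBICh. The NF-kB list was highest in pBICh 1 (0.12) and pBICl 6 (0.26) and lowest in pBICh 3 (-1.44) and pBICl 4 (-1.16). Germinal centre genes were low throughout, at -3.89 to -2.75 log2 units from YC, and Bcl6, the master factor of that state, stood at 0.355 to 9.17 CPM against 151 to 288 CPM in YC.

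**Figure D3:**
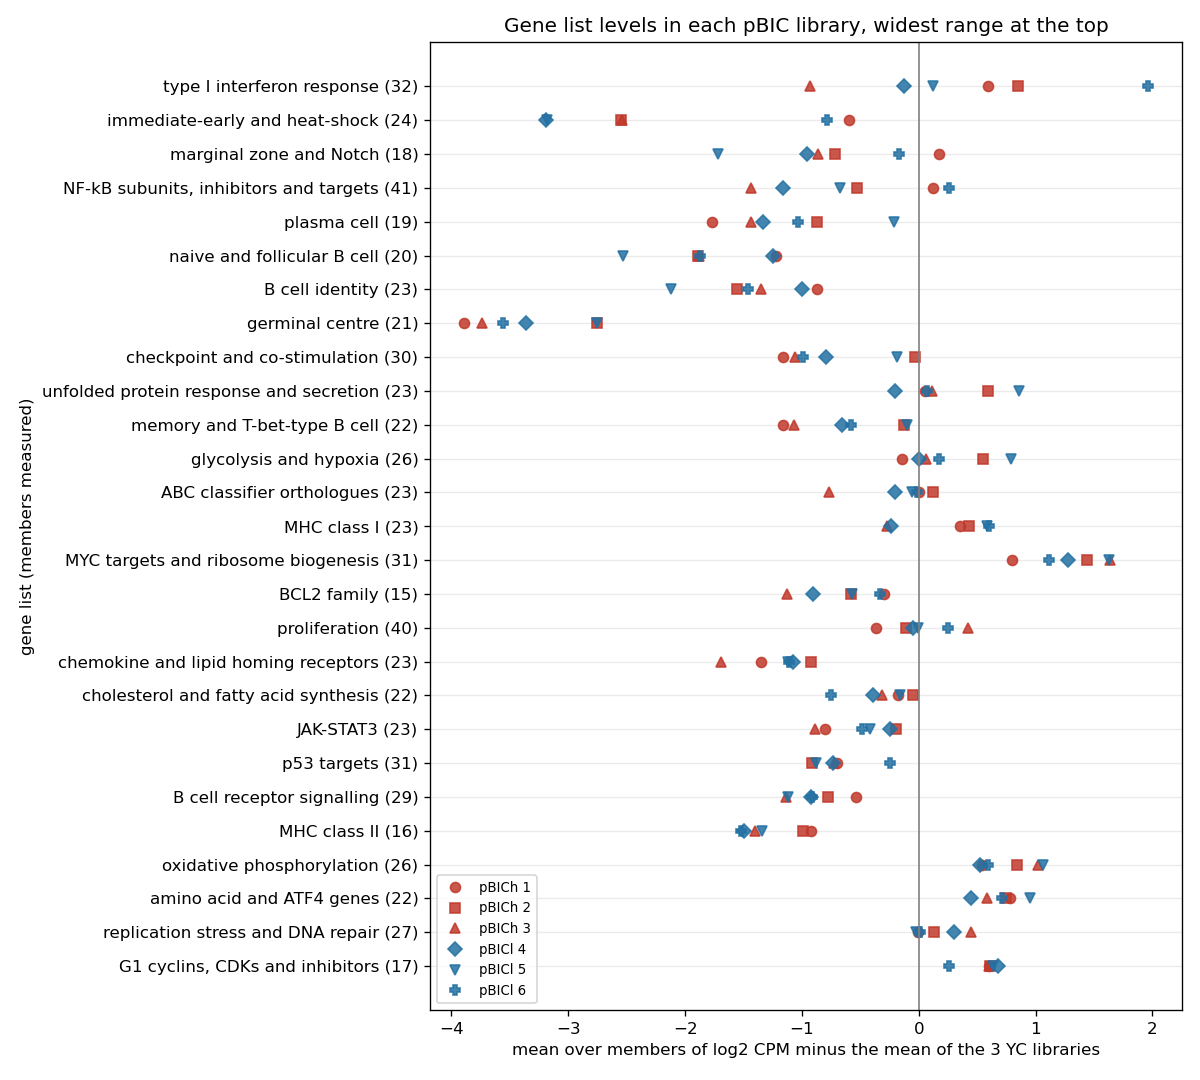
Each row is a gene list with its number of measured members, and each symbol is 1 library at the mean over members of log2 CPM minus the mean of the 3 YC libraries (red pBICh, blue pBICl). Red and blue symbols are mixed in every row. The widest row is the interferon list, from -0.93 to 1.96, and in the immediate-early row pBICh 1 and pBICl 6 lie together away from the other four.

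Over all 15850 genes the 4 closest pairs of libraries each joined a pBICh with a pBICl library. The distance between 2 libraries, taken as the root mean square difference of log2 CPM, was 1.29 to 1.43 within pBICh and 1.35 to 1.47 within pBICl, and 0.875 to 1.54 between them. For 6 of 6 libraries the nearest neighbour was in the other group. Each library has more candidates there than in its own group, so the design favours this outcome. For pBICh 3 the margin was small, at 1.22 to pBICl 4 against 1.29 to the nearest pBICh library. The closest pair was pBICh 2 with pBICl 5 (0.875), the libraries that share V genes. Next came pBICh 1 with pBICl 6 (1.08), pBICh 2 with pBICl 4 (1.15) and pBICh 3 with pBICl 4 (1.22). For comparison, distances ran from 0.57 to 0.856 among the YC and from 0.804 to 1.01 among the BIC libraries. With pBICh 2 and pBICl 5 left out, 4 of 4 libraries still had their nearest neighbour in the other group. These were pBICh 1 with pBICl 6 and pBICh 3 with pBICl 4, each pair counted from both ends. Leaving out immunoglobulin and T cell receptor genes, or genes on chromosomes X and Y, kept the order of the 4 closest pairs. On the first principal component of the 6 libraries (38.2% of variance) pBICh 1 and pBICl 6 stood at 93.7 and 89.9, and the other four between -72.5 and -22.6.

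**Figure D4:**
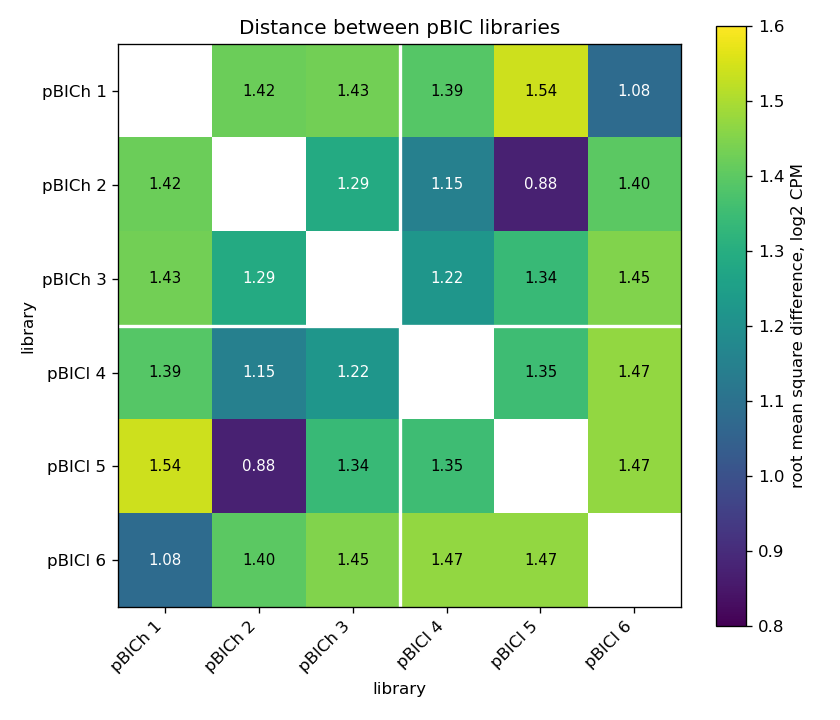
Each cell gives the root mean square difference of log2 CPM over 15850 genes between the library of its row and that of its column, and white lines separate pBICh from pBICl. The darkest cells, pBICh 2 with pBICl 5 and pBICh 1 with pBICl 6, lie outside the blocks of a single group.

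Genes that set 2 libraries apart from the other four were also most numerous for pairs across the groups, with pBICl 4 paired most with pBICh 3 here and not with pBICh 2, its nearest library by distance. A gene was counted where both libraries lay at least 2 log2 units above, or below, all the others, among genes that reached 5 CPM, without immunoglobulin genes. These genes were picked for that gap, so their levels are descriptions. pBICh 1 and pBICl 6 had 66 such high and 34 low genes, pBICh 2 and pBICl 5 had 28 and 27, and pBICh 3 and pBICl 4 had 17 and 4. The other 6 pairs across the groups had 1 to 8 high and 0 to 4 low genes, and the 6 pairs within a group had 0 or 1 high and 0 to 3 low genes, so only 3 pairs stood out. The 3 pBICh libraries together had 0 high and 0 low, as had the 3 pBICl libraries.

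The high genes named for pBICh 1 and pBICl 6 are 4 of 66. Tnf, the NF-kB target and cytokine, stood at 325 and 539 CPM in them and at 8.99 to 20.5 CPM in the other four. Plk2, a stress-induced polo-like kinase, stood at 650 and 1217 CPM against 1.94 to 26.1 CPM. YC lay between, at 134 to 209 CPM of Plk2. Ptgs1, the constitutive cyclooxygenase, stood at 102 and 78.8 CPM against 1.15 to 2.15 CPM. Chat, the choline acetyltransferase that some B cells express, stood at 26.7 and 18.0 CPM, with 0.464 CPM or less in the other pBIC libraries. In BIC 3, Tnf reached 100 CPM and Ptgs1 57.7 CPM. The low genes of this pair were equally sharp: Car12, a membrane carbonic anhydrase, was at 0.454 and 0.207 CPM in them and at 61.4 to 76.1 CPM in the other four. Sox12 and Lrig3 followed, at 0.202 and 0.0920 CPM and at 0.151 and 0 CPM, against 9.82 to 20.1 and 6.13 to 15.3 CPM. Car12 was at 0.431 CPM or less in YC and 0.406 CPM or less in BIC, so for this gene the other four libraries were the ones away from the reference. These 2 libraries shared no leading V gene, and both had little Xist, while Y-linked genes were high in pBICl 6 alone of the 2.

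pBICh 2 and pBICl 5, the libraries with the same V genes, shared Dkk3, a secreted relative of the Dickkopf Wnt inhibitors, at 27.0 and 26.0 CPM with 0.304 CPM or less in the other four. The collagen lysyl hydroxylase Plod2 stood at 14.3 and 11.7 CPM against 0.0460 to 0.518 CPM, and the tyrosine phosphatase Ptpn13 at 74.6 and 34.4 CPM against 0.164 to 1.77 CPM. Low in both were Fras1, an extracellular matrix protein (6.12 and 3.68 CPM against 66.4 to 715 CPM), Cacna1h, a T-type calcium channel subunit (1.31 and 1.51 CPM against 51.1 to 134 CPM), Ebf3, a relative of the B cell factor Ebf1 (1.5 and 1.90 CPM against 24.8 to 132 CPM), and the chemokine scavenger Ackr3 (3.52 and 3.31 CPM against 29.6 to 223 CPM). Fras1 and Ackr3 were also high in BIC (250 to 616 and 28.3 to 104 CPM), and low in YC (1.21 to 2.74 and 1.57 to 7.42 CPM). Ebf3 was at 0.185 CPM or less in YC and at 0.0557 to 18.0 CPM in BIC. Ptpn13 stood at 1.58 to 41.5 CPM in BIC. The 2 libraries were not alike in every gene. Cd24a, a surface sialoglycoprotein of B cells, stood at 74.6 CPM in pBICh 2 and 430 CPM in pBICl 5, and Grb10, an adaptor of growth factor receptors, at 0.602 and 596 CPM. Cxcr3, a chemokine receptor, stood at 3.14 and 93.9 CPM.

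pBICh 3 and pBICl 4 shared Tmem255a (36.1 and 77.9 CPM against 0.0430 to 0.414 CPM), the autophagy protease Atg4c (9.41 and 9.25 CPM against 0.252 to 0.434 CPM) and Reln, the secreted protein reelin (83.2 and 1080 CPM against 0.202 to 6.01 CPM). Bhlhe40, a basic helix-loop-helix repressor, was low in both (17.4 and 17.1 CPM against 70.6 to 209 CPM), as was Gbp8. These are the libraries led by an IgG constant gene.

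Each library also had genes of its own by the same rule, 49, 5 and 66 high genes in pBICh 1, 2 and 3 and 72, 42 and 51 in pBICl 4, 5 and 6, with 3 to 37 low genes per library. Within this paragraph, elsewhere means the other pBIC libraries. In pBICh 1 these genes included the G-protein subunits Gnat3 (24.5 CPM, 0.627 CPM or less elsewhere) and Gnb3 (185 CPM). Gnb3 also stood at 14.2 CPM in pBICl 6 and at 18.6 to 69.8 CPM in BIC, against 0.125 to 1.05 CPM in YC. In pBICh 3 they included Aldh1a2, which makes retinoic acid (63.0 CPM, 0.640 CPM or less elsewhere), and Tmed6 (167 CPM), while Prdm1 and Slfn2 were low. pBICl 4 held Atp1b1, a subunit of the sodium pump (277 CPM, 1.59 to 6.90 CPM elsewhere), and Cd93 (86.6 CPM), beside Il7r. pBICl 5 held Grb10 and Cxcr3. pBICl 6 held Myh13 (74.5 CPM) and the interferon genes above, and it was the exception for Cdkn2a, the gene of the cell cycle inhibitors p16 and p19Arf: 11.4 CPM against 170 to 343 CPM in the other five libraries and 1.63 to 3.78 CPM in YC. The BIC libraries stood at 21.1, 41.0 and 9.4 CPM of Cdkn2a, also above YC, and pBICl 6 lay inside the BIC range. Cdkn2a lies at chromosome 4, 89274471 to 89294653. Tumours of both groups held this p53-pathway gene above the YC level, with 1 pBICl tumour apart from the rest.

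Chromosome by chromosome, the libraries differed from each other and not by group. The median over a chromosome's genes of log2 CPM minus the YC mean overlapped between pBICh and pBICl on all 20 chromosomes (1 to 19 and X). Medians of at least 0.2 in absolute size occurred on 13 chromosomes in pBICh 1, 3 in pBICh 2, 2 in pBICh 3, 4 in pBICl 4, 1 in pBICl 5 and 11 in pBICl 6. YC libraries had 0 and BIC libraries at most 2. pBICh 1 and pBICl 6, the pair closest after the V-sharing one, thus had the most. They shared high medians on chromosomes 10 (0.26 and 0.55), 17 (0.44 and 0.26), 4 (0.22 and 0.33) and 18 (0.20 and 0.26). Chromosome 17 was also high in BIC 3 (0.27). Shared low medians were on X (-0.41 and -0.39), 8 (-0.27 and -0.28), 12 (-0.42 and -0.22), 16 (-0.47 and -0.26) and 19 (-0.41 and -0.24). Chromosomes 12 and 19 were also low in pBICl 4 (-0.225 and -0.218), so these lows were not particular to the pair. The 2 libraries differed on chromosome 15 (0.37 and -0.08) and chromosome 1 (-0.46 and -0.05). Only 1 of them also reached 0.2 on chromosomes 13 (-0.23 and 0.18), 14 (0.03 and -0.26), 6 (0.11 and 0.27) and 3 (-0.23 and -0.16). On chromosomes 13 and 14 their signs were opposite. pBICh 2 and pBICl 5 shared a high median on chromosome 14 (0.50 and 0.46, with 0.07 or less in the other four). They differed on chromosome 16 (0.44 in pBICh 2 and 0.01 in pBICl 5) and on chromosome 5 (0.27 and 0.03). pBICl 4 had its highest on chromosome 5 (0.40). DNA copy number was not measured here, and its part in these medians was not tested.

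**Figure D5:**
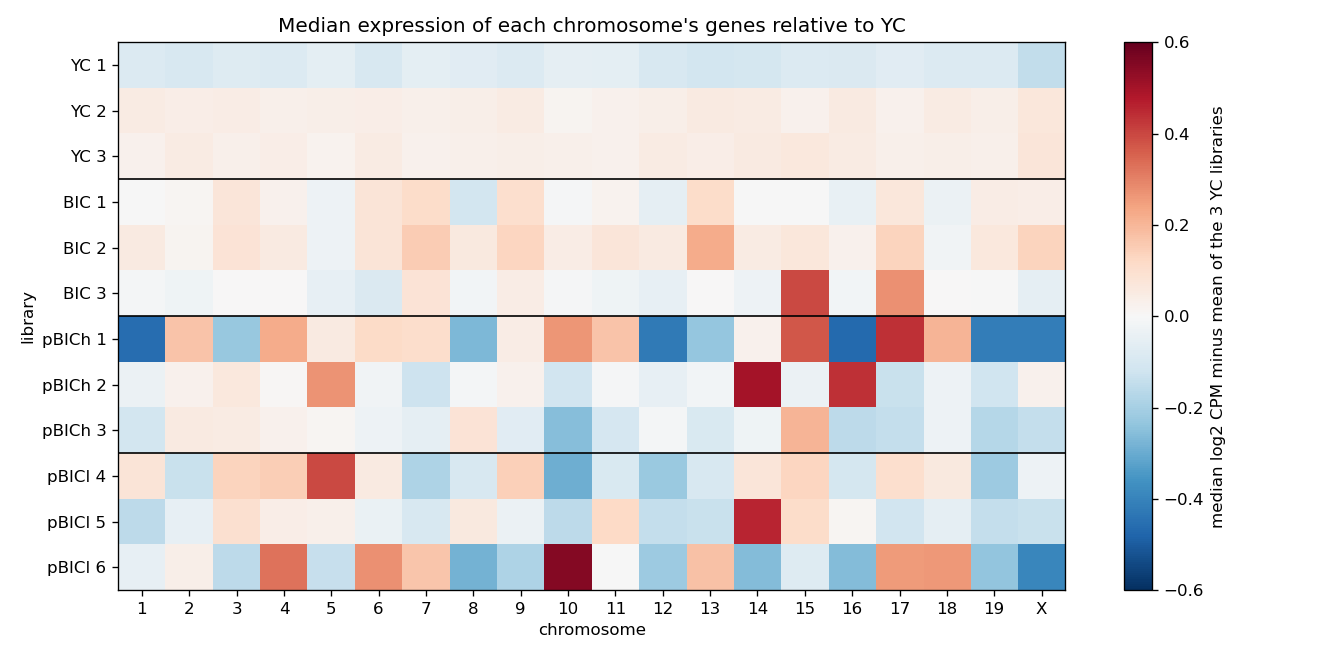
Rows are the 12 libraries and columns chromosomes 1 to 19 and X; colour is the median over a chromosome's genes of log2 CPM minus the mean of the 3 YC libraries. The pBICh 2 and pBICl 5 rows share the dark cell on chromosome 14, and pBICh 1 and pBICl 6 have the most coloured cells.

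Markers of other spleen cells had lower fitted levels in pBICh for most tested members of the T cell, NK cell, neutrophil, macrophage, dendritic cell and erythroid lists, and the list levels overlapped between the groups. Their part in the results above was not tested. Of 15 monocyte and macrophage markers, 11 had a lower fitted level in pBICh (median log2 difference -1.60), and 0 were called. An unadjusted p under 0.05 was held by 3 of the 15 (0.965% over all genes), each lower in pBICh. Of the 15, 2 did not overlap between the groups, Cd14 and Marco (3.45% over all genes). Both were scarce, at 0.273 to 1.645 CPM of Cd14 and 0 to 1.74 CPM of Marco over the 6 libraries. The 15 markers summed to 162, 137 and 39.8 CPM in pBICh and 67.3, 180 and 412 CPM in pBICl. In pBICl 6, the highest, Lyz2 accounted for 226 CPM and C1qa stood at no more than 20.2 CPM; Fcgr1 was at 0 in 2 libraries. All 10 erythroid markers had a lower fitted level in pBICh, with sums of 56.3, 116 and 22.3 CPM against 38.2, 439 and 120 CPM, so pBICl 5 was the high one. All 11 tested neutrophil markers had a lower fitted level in pBICh (median -0.48), and the 13 markers summed to 14.1, 47.4 and 5.97 CPM against 12.1, 85.1 and 7.00 CPM, with Ly6g at 0.172 CPM or less and Elane at 0 in 2 libraries. Of 12 T cell markers, 10 had a lower fitted level in pBICh (median -1.01), with 1 at an unadjusted p under 0.05. They summed to 26.2 to 71.9 CPM over the 6 libraries, in which Cd3e reached 2.96 CPM at most. pBICh 3 had the lowest sum of macrophage, erythroid, neutrophil and T cell markers. pBICl 6, the library with the high interferon list level, had the highest macrophage sum, and the part of those cells in that level was not tested.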

How the data were processed

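Bulk poly(A) RNA of sorted splenic B cells was sequenced as paired reads of 100 bases, per the labels' protocols. The deposited values are raw counts per gene, made by the authors with featureCounts 1.5.0 over exons of GENCODE M13, per the file headers, which show no paired-end, strand or multi-mapping option. STAR, FastQC, edgeR and limma are named in the submitters' processing notes. Library groups followed the letters in the file names; no per-sample column was left over.

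The 6 pBIC libraries were fitted alone with edgeR 4.0.16 (R 4.3.3, TMM factors, filterByExpr with a minimum count of 10, quasi-likelihood test, Benjamini-Hochberg adjustment at 0.05). The fit was run on simulated counts of independent libraries with the same spread setting for every gene. That setting is not the spread of the real libraries, so the run does not show which differences could be found here. limma 3.58.1 and DESeq2 1.42.0 were alternatives. CPM used TMM factors over all 12 libraries, and log2 CPM a prior count of 2. Total counts of 36450347 to 47067627 put the level of 3 counts at 0.0637 to 0.0823 CPM. Single values used exact permutation tests (scipy 1.17.1). Wilson intervals cover counting error only. Sequences and symbols came from GENCODE M21.

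The groups, the gene lists and the rule for named genes were chosen with earlier results of these data known. The rule took Trp53, Ikbkb and Prdm1, then 10 genes per direction with the largest called change. Places left without a call went to the smallest unadjusted p, at a mean of at least 5 CPM and without overlap between groups. Immunoglobulin and T cell receptor segments, pseudogenes and genes named by a clone or model number were left out. Up to 4 members per list were taken in order of p. Genes of single libraries or pairs were chosen after their values were seen. Some items are not reported here.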

Additional observations from a re-analysis of the deposited data

How the results depend on the processing

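Of 14 alternatives to the test of all genes, 13 called 0 genes, with 125 to 531 genes at an unadjusted p under 0.05, and the smallest adjusted p of any gene lay between 0.355 (without pBICl 5) and 1. DESeq2 called 4 (3 higher, 1 lower in pBICh); the cause was not tested. Leaving out each replicate in turn gave 0 to 0 called genes. Of 322 values of named genes under these alternatives, 317 kept their direction and their side of the threshold and 5 reversed, all near 0. Most of these values belong to genes chosen for groups that do not overlap, a choice that fixes their direction, so the count is no sign of stability. Of the reversed values, the log2 fold change of Trp53 was 0.15 without pBICl 4 (-0.31 to 0.15 over the fits that left out a replicate), and the log2 fold change of Ikbkb was 0.0112 with no filter on low counts, 0.0165 without both libraries that share V genes, 0.0512 without pBICh 2 and 0.0312 without pBICl 6 (-0.0372 to 0.0512); the cause was not tested. The fit with a replicate block, resting only on the numbers in the file names, called 0 genes (133 at an unadjusted p under 0.05). Deviations of same-numbered libraries correlated at -0.14, 0.46 and -0.16, where 0.46 was for pBICh 2 and pBICl 5. pBICh 1 and pBICl 6, which differ in number, reached 0.51. These are deviations from means of 3 libraries, so they cannot tell whether the numbers record a pairing. The alternatives for distances and for the gap were chosen after seeing the data. Among genes of at least 5 CPM, 13 of 15 distances moved, and the 4 closest pairs kept their order (0.628, 0.853, 0.923 and 0.935). With a gap of 1 log2 unit, pBICh 1 and pBICl 6 shared 223 high and 160 low genes, pBICh 2 and pBICl 5 98 and 74, and pBICh 3 and pBICl 4 61 and 37. With BIC as the reference 9 of 120 chromosome medians moved, and among genes of at least 20 CPM 1 did. Counting only V genes with at least 10 counts moved 7 of 18 shares, of which the leading heavy-chain share of pBICl 4 moved most, from 50.9 to 51.99%.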
